A study of Homo sapiens with 7 samples.

Results

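Glycolysis splits glucose into pyruvate in the cytosol, with a net yield of ATP and NADH, and lactate dehydrogenase returns the NADH to its oxidised form. The pentose phosphate pathway branches off at glucose 6-phosphate and supplies NADPH and ribose 5-phosphate. In mitochondria the pyruvate dehydrogenase complex turns pyruvate into acetyl-CoA, which the TCA cycle oxidises, and proliferating tumour cells are known for running glycolysis at a high rate in the presence of oxygen. The genes described here are 42 enzymes of these pathways, listed by symbol for their place in these pathways, with earlier results of these data known, out of 20056 gene symbols with values. They fall into 9 genes of upper glycolysis, 8 of lower glycolysis, 6 of the pentose phosphate pathway, 5 of pyruvate entry and 14 of the TCA cycle. All 42 were found in the table.

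The cells were HCT116, an established human colorectal carcinoma line, in log phase, grown without serum in McCoy's 5A medium with epidermal growth factor, insulin and transferrin. There was no treated or mutant group: the 3 groups are 3 assays of the same kind of cell, namely transcription rate (TR, 2 GRO-seq libraries of bromo-UTP labelled nuclear run-on RNA), mRNA abundance (RA, 3 RNA-seq libraries) and translation activity (TA, 2 libraries of polysome mRNA from cells given cycloheximide before lysis). RA and TA libraries were made from RNA purified with an mRNA kit, whereas TR libraries were captured by the bromo-UTP label, so assay and parameter cannot be told apart. The study calls its replicates biological, while the labels do not say whether they came from separate cultures, so p-values measure the spread between these samples.

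Library sizes, worked out from the deposited values, were 3391897 and 5629982 reads for TR and between 20299018 and 30805391 reads for RA and TA. A median gene of the 42 held 341.5 reads in a TR library, 3075 in an RA library and 5348 in a TA library, and the thinnest value, SUCLA2 in TR replicate 1, rested on 30 reads. Reads carry no molecular identifiers, so depth covers counting error only. Of the markers of colon epithelium, EPCAM, CDH1, KRT8, KRT18 and KRT19 summed to between 1899 and 2550 RPKM in RA, and CDX2 read between 7.83 and 10.3 RPKM. VIL1 and CDX1 were near 0, at no more than 0.0355 and 0.0275 RPKM in an RA library, and the 6 markers of blood, endothelial and stromal cells reached at most 0.167 RPKM.

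RPKM scales reads by exon length and by library size, so levels of different genes can be set side by side per length, and every value is a share of its library and not a number of molecules per cell. In such bulk samples fewer cells with a transcript and less of it per cell cannot be told apart. Stability index here means log2(RA/TR), the mRNA level set against transcription, while translation index means log2(TA/RA), and both were taken from a limma fit on log2(RPKM + 0.1), and a gene is called where the Benjamini-Hochberg adjusted p over 14305 tested genes is under 0.05. The indices share the RA libraries, so a gene high in RA by error is raised in one and lowered in the other.

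Promoters of genes with a high TR are shown because TR is the first of the measured steps. They come from RefSeq on GRCh38.p14 and run from 250 bases before to 50 bases after the listed start, with the first entry used where a symbol has several. This left out 25 further entries of the 42 genes. Which start these cells use was not tested, so a window may lie at an alternative start, that of GAPDH included. Capitals mark ACGTG on either strand, the core of the hypoxia response element and part of the palindrome CACGTG, of which both strands then count.
GAPDH, chr12:6535014-6535313, plus strand: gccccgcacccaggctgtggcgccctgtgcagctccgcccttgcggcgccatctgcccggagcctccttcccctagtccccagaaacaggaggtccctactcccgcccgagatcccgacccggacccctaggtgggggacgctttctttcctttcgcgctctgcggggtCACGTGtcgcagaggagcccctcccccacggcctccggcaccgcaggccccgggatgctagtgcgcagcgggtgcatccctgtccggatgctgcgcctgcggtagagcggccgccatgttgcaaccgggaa
TPI1, chr12:6867281-6867580, plus strand: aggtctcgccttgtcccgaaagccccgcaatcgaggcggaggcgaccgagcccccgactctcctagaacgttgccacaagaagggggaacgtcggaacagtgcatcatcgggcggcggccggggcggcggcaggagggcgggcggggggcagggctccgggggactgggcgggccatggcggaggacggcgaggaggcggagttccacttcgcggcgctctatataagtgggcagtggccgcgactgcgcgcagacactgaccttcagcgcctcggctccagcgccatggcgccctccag
TALDO1, chr11:747214-747513, plus strand: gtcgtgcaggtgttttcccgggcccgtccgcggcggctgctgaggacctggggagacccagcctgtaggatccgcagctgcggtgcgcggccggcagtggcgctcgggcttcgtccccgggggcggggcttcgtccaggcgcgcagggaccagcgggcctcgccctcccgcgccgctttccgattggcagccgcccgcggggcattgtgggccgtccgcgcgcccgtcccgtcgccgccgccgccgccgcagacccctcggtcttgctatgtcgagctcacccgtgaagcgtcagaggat
PDHB, chr3:58433783-58434082, minus strand: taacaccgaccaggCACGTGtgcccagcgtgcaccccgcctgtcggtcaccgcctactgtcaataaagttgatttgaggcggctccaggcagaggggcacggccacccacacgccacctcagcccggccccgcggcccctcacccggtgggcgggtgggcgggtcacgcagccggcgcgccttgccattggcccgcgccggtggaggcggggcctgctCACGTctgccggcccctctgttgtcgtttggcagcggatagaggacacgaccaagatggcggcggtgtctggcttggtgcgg
IDH3B, chr20:2664167-2664466, minus strand: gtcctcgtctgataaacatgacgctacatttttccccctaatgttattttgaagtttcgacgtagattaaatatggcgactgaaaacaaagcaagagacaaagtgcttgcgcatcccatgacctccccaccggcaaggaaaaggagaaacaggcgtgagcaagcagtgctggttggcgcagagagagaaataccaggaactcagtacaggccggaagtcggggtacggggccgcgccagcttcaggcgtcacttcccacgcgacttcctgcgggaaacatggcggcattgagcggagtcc
Each had the highest TR of its pathway, GAPDH in lower glycolysis, TPI1 in upper glycolysis, TALDO1 in the pentose phosphate pathway, PDHB in pyruvate entry and IDH3B in the TCA cycle. ACGTG was found in 2 of these 5 windows, those of GAPDH and PDHB. Of the 42 genes, 41 had a promoter in the table and OGDH did not. The motif was present in 14 of the 41, or 34.1%, against 21.6% of 27305 promoters of the same length. The 14 were HK2, GPI, ALDOA, ALDOC, GAPDH, PGK1, ENO2, LDHA, PGD, PDHB, DLAT, PC, IDH1 and IDH3G. TATAAA on either strand was present in 1 of the 41, LDHB, against 12% of all promoters. A match is a description of the letters and not a bound site.

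Most of these mRNAs stood higher in RA than in TR and higher again in TA. In RA against TR, 30 of the 42 were called higher and 2 lower, where 19.2% of all tested genes were called higher and 48% lower. In TA against RA, 17 were called higher and 1 lower, where 6.66% of all tested genes were higher and 29.2% lower. In TA against TR, 36 were higher and 2 lower, with 17% and 57.5% of all tested genes. The median of the 42 was 1.22 for the stability index, 0.58 for the translation index and 2.05 for TA against TR on the log2 scale, beside -0.58, -0.37 and -1.08 for all tested genes. The median for the stability index lay between 0.86 and 1.55 over the 6 pairs of single RA and TR libraries, and for the translation index between 0.33 and 0.96.

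The 42 are abundant mRNAs, and RA is part of both indices. Among the 7342 tested genes whose mean RA was at least that of the lowest of the 42, PC at 8.501 RPKM, 35.1% were called higher and 20.9% lower in RA against TR. In TA against RA the shares were 11.7% and 27.2%, and in TA against TR 31.1% and 32%. This comparison set was chosen on RA and after the data had been seen. All 42 reached 1 RPKM in each parameter, and 1 alternative fit held only the 10825 genes that did so. There 24.3% were called higher and 33.8% lower in RA against TR, beside 30 and 2 of the 42. The shares in TA against RA were 8.87% and 29.8%, beside 18 and 1 of the 42. Those in TA against TR were 21.6% and 45.6%, beside 36 and 2. Centring each library on the median of the tested genes moved the share of higher among all called genes from 28.5% to 51.3% in RA against TR, from 18.6% to 65.9% in TA against RA and from 22.9% to 51.9% in TA against TR. Under that centring 37, 34 and 41 of the 42 were called higher and none lower. Of all tested genes 35.4%, 19% and 38% were then called higher, and 33.7%, 9.81% and 35.3% lower.

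The count in TA against RA moved with the libraries. It was 11 higher without TR replicate 1 or TR replicate 2, which enter it only through the shared spread, 10 without RA replicate 2 or RA replicate 3, 8 without TA replicate 1 or TA replicate 2, and 23 without RA replicate 1. Over all tested genes the share called higher was 7.2%, 5.81% and 2.95% without RA replicate 1, 2 and 3, beside 6.66% with all libraries. That share also fell without any 1 of the TR or TA libraries. The count called higher in all 15 alternatives was 5, namely PDHB, IDH3G, SUCLG1, MDH1 and MDH2. The share of all tested genes called in every alternative was not computed. In RA against TR 26 genes were called higher in every alternative.

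**Figure D1:**
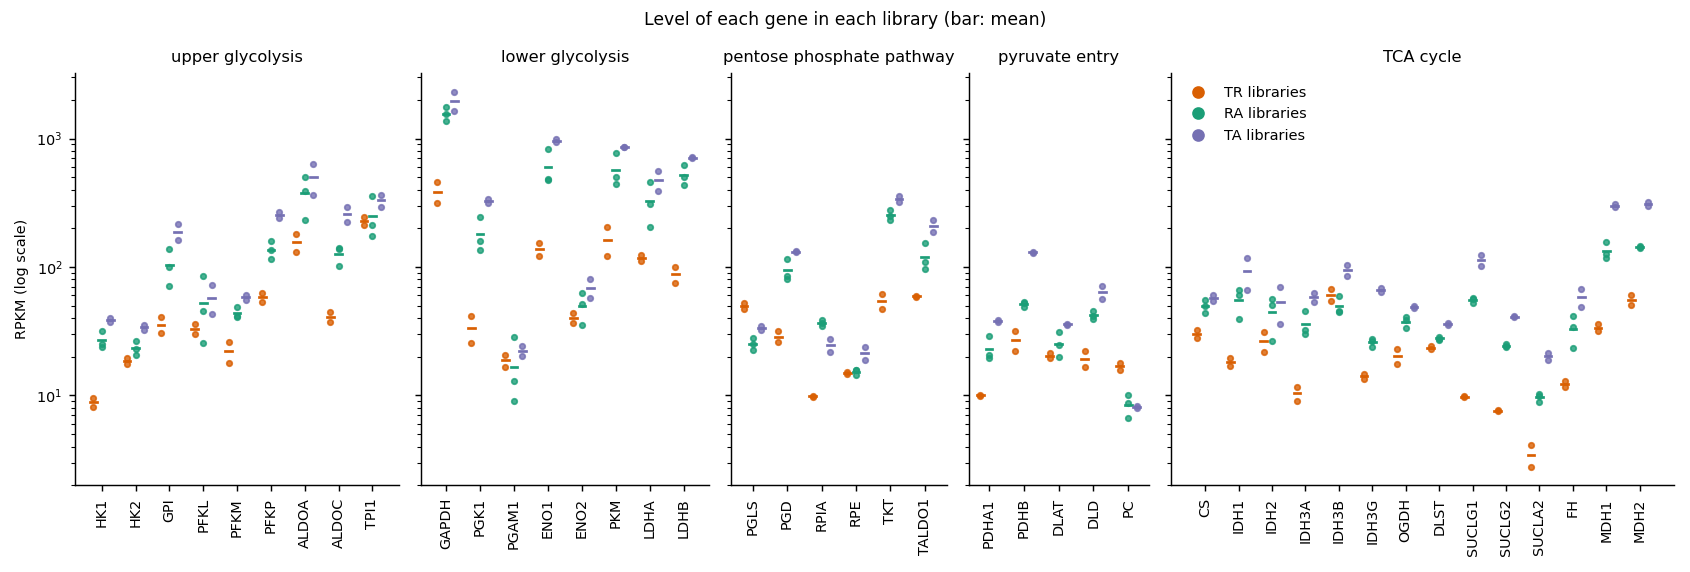
RPKM on a log axis for each of the 42 genes in 2 TR, 3 RA and 2 TA libraries, grouped by pathway, with points for libraries and bars for means. In most genes the TR points lie lowest and the TA points highest, while PGLS and PC have their TR points on top.

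Upper glycolysis carries glucose to triose phosphates. Of its 9 genes, 6 were called higher in RA against TR and 4 in TA against RA. The shares over all tested genes were 19.2% and 6.66% higher, and 48% and 29.2% lower. None of the 9 was lower in either by limma, also at an unadjusted p under 0.05, and their medians were 1.21 and 0.53. Hexokinase commits glucose to the cell by phosphorylating it. HK1 read 9.56 and 8.20 RPKM in TR, 32.03, 23.9 and 25 in RA and 40.4 and 37.2 in TA. HK2 read 17.5 and 19.7 RPKM in TR, 22.9, 20.5 and 26.6 in RA and 32.2 and 35.6 in TA. All HK1 values in RA stood above those in TR, as did the HK2 values, by a smaller margin. The stability index was 1.58 (SE 0.19, limma adjusted p = 0.00013) for HK1, and 0.32 (SE 0.17, limma adjusted p = 0.13) for HK2, which was not called.

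Phosphofructokinase catalyses the committed step of glycolysis and has liver, muscle and platelet type subunits. PFKP, the platelet type, was the most abundant with 63.3 and 53.01 RPKM in TR, 159, 116 and 136 in RA and 242 and 266 in TA. PFKM, the muscle type, read 26.3 and 18.03 RPKM in TR, 48.7, 41.6 and 40.6 in RA and 60.8 and 55.4 in TA. Neither gene had overlapping TR and RA libraries, and their stability indices were 1.23 (SE 0.21, limma adjusted p = 0.001) and 0.99 (SE 0.20, limma adjusted p = 0.0027). PFKL, the liver type, read 35.7 and 30.4 RPKM in TR, 85.6, 25.7 and 45.1 in RA and 43.3 and 71.8 in TA, and its RA libraries overlapped both other groups. PFKL had the lowest translation index of upper glycolysis, 0.27 (SE 0.46, limma adjusted p = 0.68), and it turned negative without RA replicate 2 or TA replicate 2.

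Aldolase cleaves fructose 1,6-bisphosphate. ALDOC read 44.3 and 37.01 RPKM in TR, 139, 101 and 140.3 in RA and 222 and 291 in TA, with no overlap between the groups, and was highest of upper glycolysis in both indices. Its stability index was 1.63 (SE 0.23, limma adjusted p = 0.00037) and its translation index 1.02 (SE 0.23, limma adjusted p = 0.013). ALDOA, the muscle type, was more abundant with 182 and 131 RPKM in TR, 501, 232 and 391 in RA and 365 and 637 in TA, and its TA libraries overlapped those of RA. Its stability index, 1.21 (SE 0.40, limma adjusted p = 0.027), was no longer called without TR replicate 1, TR replicate 2, RA replicate 1 or RA replicate 3. ALDOA shares 42.8% of its exon bases with another annotated gene on the same strand, so its counts are uncertain.

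TPI1, which interconverts the triose phosphates, had the highest TR of upper glycolysis and the lowest stability index. It read 243 and 214 RPKM in TR, 360.0, 173 and 212 in RA and 295 and 364 in TA, so that RA spread to both sides of TR. The index was 0.05 (SE 0.33, limma adjusted p = 0.9) and turned negative without TR replicate 2 or RA replicate 1. GPI, which isomerises glucose 6-phosphate, had a stability index of 1.495 and a translation index of 0.91, both called.

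Lower glycolysis yields ATP and pyruvate. It held the highest levels of the 42. In RA against TR 6 of its 8 genes were called higher and none lower, with a median of 1.92, beside 19.2% and 48% of all tested genes. None was called by limma in TA against RA, where 6.66% of all tested genes were called higher and 29.2% lower. There 1 gene, PGK1, had an unadjusted limma p under 0.05, all 8 estimates were above 0 and the median was 0.59. GAPDH, which makes 1,3-bisphosphoglycerate and NADH, read 457 and 315 RPKM in TR, 1753, 1368 and 1538 in RA and 1626 and 2303 in TA. It was the highest of the 42 in all 3 parameters, and RA and TA overlapped while TR stood apart. Its stability index was 2.03 (SE 0.40, limma adjusted p = 0.0023) and its translation index, the lowest of lower glycolysis, was 0.32 (SE 0.40, limma adjusted p = 0.56). The annotation holds 65 named pseudogenes of GAPDH, so its counts depend on how shared reads were treated.

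PGK1, which forms ATP from that product, read 41.6 and 25.6 RPKM in TR, 243, 135 and 161 in RA and 314 and 335 in TA, with the groups apart from each other. Its stability index was 2.41 (SE 0.31, limma adjusted p = 0.0002) and its translation index 0.90 (SE 0.31, limma adjusted p = 0.053), the highest of lower glycolysis yet not called. PGAM1, phosphoglycerate mutase, read 16.8 and 20.8 RPKM in TR, 28.4, 8.98 and 13.01 in RA and 20.3 and 24.3 in TA, and RA lay on both sides of TR. PGAM1 had the lowest stability index of glycolysis, -0.32 (SE 0.42, limma adjusted p = 0.53), which became positive when libraries were centred on the median of tested genes or when RA replicate 2 was left out, and which was called lower without RA replicate 1. There are 13 named PGAM1 pseudogenes in the annotation.

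Enolase forms phosphoenolpyruvate. ENO1, the ubiquitous type, read 154 and 122 RPKM in TR, 832, 472 and 485 in RA and 934 and 987 in TA. ENO2, known from neurons, read 43.6 and 36.7 RPKM in TR, 62.9, 35.1 and 51.2 in RA and 57.5 and 80.3 in TA. The ENO1 groups did not overlap and those of ENO2 did, and the stability indices were 2.07 (SE 0.33, limma adjusted p = 0.00074) and 0.27 (SE 0.27, limma adjusted p = 0.4). PKM, pyruvate kinase, had a stability index of 1.81, which was called, and a translation index of 0.63, which was not.

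Lactate dehydrogenase tetramers are built from A and B subunits. LDHB read 100.2 and 75.2 RPKM in TR, 627, 499 and 436 in RA and 710.3 and 712 in TA. LDHA read 124 and 112 RPKM in TR, 455, 206 and 311 in RA and 391 and 557 in TA. In both genes TR stood below RA, and in LDHA the TA values overlapped those of RA. LDHB had the highest stability index of the 42, 2.57 (SE 0.27, limma adjusted p = 6.9e-05), and LDHA had 1.39 (SE 0.35, limma adjusted p = 0.0085), which was not called without either TR replicate. LDHB shares 33.4% of its exon bases with another gene on its strand.

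Of the 6 pentose phosphate genes, 4 were called higher and 1 lower in RA against TR, and 1 higher and 1 lower in TA against RA. All tested genes had 19.2% higher and 48% lower in RA against TR, and 6.66% and 29.2% in TA against RA. TKT, the transketolase of the non-oxidative branch, read 61.4 and 47.1 RPKM in TR, 251, 275 and 232 in RA and 357 and 321 in TA, with all groups apart. It had the highest stability index of the pathway, 2.23 (SE 0.21, limma adjusted p = 3.9e-05). TALDO1, transaldolase, read 58.8 and 59.7 RPKM in TR, 153, 97.1 and 109.6 in RA and 188 and 231 in TA. Its stability index was 0.99 and its translation index 0.83 (SE 0.24, limma adjusted p = 0.029) was the one called higher in the pathway.

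PGLS, the lactonase of the oxidative branch, ran the other way with 47.3 and 52.05 RPKM in TR, 22.6, 24.9 and 28.04 in RA and 32.2 and 34.9 in TA. Both TR values stood above all RA and TA values. The stability index was -0.98 (SE 0.16, limma adjusted p = 0.00092), called lower in the values as deposited and not called when centred on the median of tested genes, since it lay 0.40 below that median. In TA against TR PGLS was called lower at -0.57 (SE 0.18, limma adjusted p = 0.02), but the call was lost without TR replicate 2 or TA replicate 1, where it was -0.497 and -0.509. Centring on the median of tested genes turned it to 0.61, called higher at a limma adjusted p of 0.015, and the other centring to 0.0732, not called. PGD, which produces NADPH, had a stability index of 1.70, which was called.

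RPIA, ribose 5-phosphate isomerase, was the one gene of the 42 called lower in TA against RA. It read 9.97 and 9.68 RPKM in TR, 34.7, 36.4 and 38.8 in RA and 21.97 and 27.6 in TA, with TA below RA in every library and TR below both. The stability index was 1.89 (SE 0.17, limma adjusted p = 2.5e-05) and the translation index -0.57 (SE 0.17, limma adjusted p = 0.031). The latter lay 0.20 below the median of all tested genes and was not called under either centring, nor without TR replicate 1, RA replicate 2, RA replicate 3 or TA replicate 1, where it lay between -0.572 and -0.404. RPE, the epimerase, had a stability index of 0.03 and a translation index of 0.47, neither called, and 23.8% of its exon bases overlap a gene on the opposite strand.

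Pyruvate enters the mitochondrial cycle as acetyl-CoA or as oxaloacetate. Of the 5 genes, 3 were called higher and 1 lower in RA against TR, and 3 higher and none lower in TA against RA. Among all tested genes 19.2% were higher and 48% lower in the first, and 6.66% and 29.2% in the second. PDHB, the beta subunit of the E1 component of pyruvate dehydrogenase, read 22.2 and 31.7 RPKM in TR, 53.4, 49.2 and 52.1 in RA and 130.3 and 129 in TA, with TA more than the largest RA value in both libraries. Its translation index, 1.33 (SE 0.19, limma adjusted p = 0.0036), was called in every alternative. PDHA1, the alpha subunit, read 9.92 and 10.1 RPKM in TR, 28.9, 19.7 and 20.7 in RA and 37.4 and 38.4 in TA and had the highest stability index of these genes, 1.18 (SE 0.20, limma adjusted p = 0.00099).

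DLD, the E3 component that the 2-oxoglutarate dehydrogenase complex also uses, read 22.3 and 16.5 RPKM in TR, 45.3, 41.6 and 39.5 in RA and 71.7 and 56.7 in TA. TR, RA and TA did not overlap, and the indices were 1.13 and 0.60, both called. DLAT, the E2 component, had 0.28 and 0.53, neither called.

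PC, pyruvate carboxylase, makes oxaloacetate and was the lowest of the 42 in the stability index. PC read 15.8 and 17.97 RPKM in TR, 6.69, 10.1 and 8.68 in RA and 8.31 and 7.94 in TA. TR was above RA and TA in every library, and RA and TA overlapped. The index was -0.998 (SE 0.22, limma adjusted p = 0.0037) and was not called once libraries were centred on the median of tested genes, which it undershot by 0.42. The translation index was -0.04 and changed sign with either centring or without RA replicate 2. In TA against TR PC was called lower at -1.04 (SE 0.24, limma adjusted p = 0.004), and centring on the median of tested genes turned this to 0.13, while under both centrings the call was lost.

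Of the 14 TCA cycle genes, 11 were called higher in RA against TR and 9 in TA against RA. For all tested genes the shares were 19.2% and 6.66% higher, and 48% and 29.2% lower. None of the 14 was lower by limma, also at an unadjusted p under 0.05, and their medians were 1.37 and 0.80. Malate dehydrogenase closes the cycle. MDH2, the mitochondrial type, read 60.2 and 50.4 RPKM in TR, 139, 143 and 145 in RA and 299 and 319 in TA. MDH1, the cytosolic type, which belongs to the malate shuttle, read 35.7 and 31.6 RPKM in TR, 157, 117 and 126 in RA and 290.5 and 308 in TA. Both had TR, RA and TA apart. The translation indices were 1.12 (SE 0.18, limma adjusted p = 0.0046) and 1.18 (SE 0.20, limma adjusted p = 0.005).

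Succinyl-CoA synthetase joins a shared alpha subunit, SUCLG1, to a GTP-forming beta subunit, SUCLG2, or an ATP-forming one, SUCLA2. SUCLG1 read 9.71 and 9.87 RPKM in TR, 56.2, 57.2 and 52.6 in RA and 123 and 103 in TA, SUCLG2 read 7.64 and 7.54 RPKM in TR, 24.3, 23.7 and 25.2 in RA and 40.99 and 41.4 in TA, and SUCLA2 read 4.09 and 2.79 RPKM in TR, 10.2, 8.82 and 9.89 in RA and 21.3 and 18.96 in TA. In all 3 genes the groups were apart and rose from TR to RA to TA. SUCLG1 had the highest stability index of the cycle, 2.49 (SE 0.16, limma adjusted p = 3.7e-06), and a translation index of 1.02. SUCLG2 and SUCLA2 had stability indices of 1.67 and 1.48 and translation indices of 0.75 and 1.05, all called.

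Isocitrate dehydrogenase comes as an NAD-dependent complex of IDH3A, IDH3B and IDH3G and as the NADP-dependent enzymes IDH1, in the cytosol, and IDH2, in mitochondria. IDH3G read 14.7 and 13.5 RPKM in TR, 27.7, 23.7 and 26.7 in RA and 63.9 and 68.9 in TA, and its translation index, 1.35 (SE 0.16, limma adjusted p = 0.0026), was the highest of the 42. IDH3B read 67.8 and 54.3 RPKM in TR, 59.8, 45.03 and 45.3 in RA and 85.1 and 104 in TA. Its stability index was the lowest of the cycle, -0.29 (SE 0.21, limma adjusted p = 0.25), and turned positive when libraries were centred on the median of tested genes. Its translation index was 0.92, called. IDH3A, with 38.8% of its exon bases overlapped by genes on the opposite strand, had 1.77 and 0.71, both called.

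IDH1 read 19.5 and 17.1 RPKM in TR, 60.1, 66.3 and 39.3 in RA and 118 and 66.5 in TA. IDH2 read 31.3 and 21.9 RPKM in TR, 56.3, 26.6 and 50.5 in RA and 36.2 and 69.8 in TA. IDH1 was higher in RA than in TR in every library, at 1.56, while the IDH2 libraries overlapped and neither of its indices was called. The TA libraries of the pair ran in opposite directions, with IDH1 higher in replicate 1 and IDH2 higher in replicate 2.

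CS, citrate synthase, read 32.5 and 28.1 RPKM in TR, 55.7, 44.2 and 49.9 in RA and 54.8 and 60.3 in TA and had the lowest translation index of the cycle, 0.21 (SE 0.17, limma adjusted p = 0.37), beside a stability index of 0.72, which was called. OGDH, the E1 component of 2-oxoglutarate dehydrogenase, had 0.90 and 0.38, of which the first was called. DLST, its E2 component, had 0.24 and 0.38, neither called. FH, fumarase, had 1.38 and 0.84, both called.

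**Figure D2:**
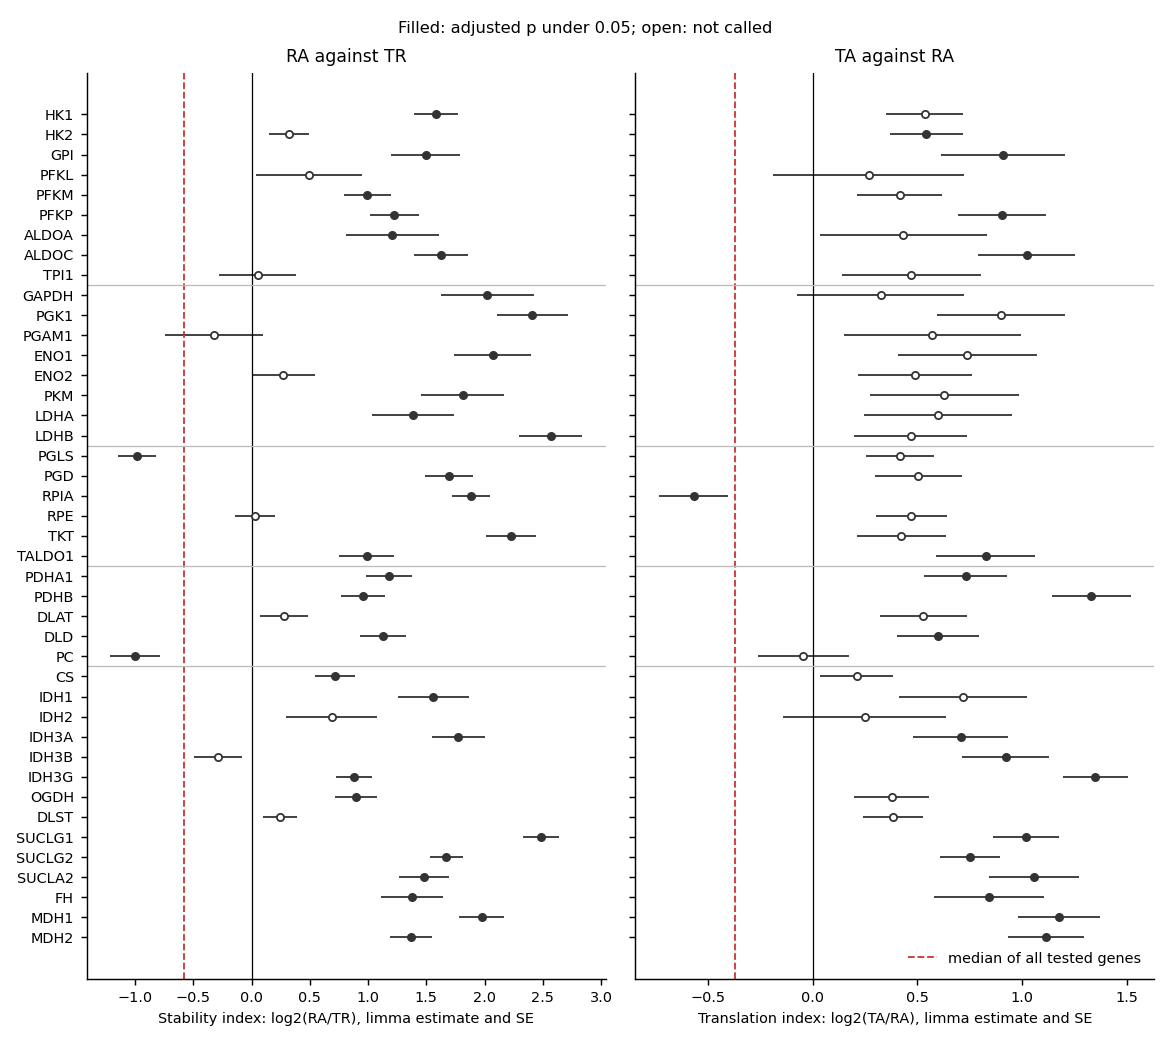
Stability index (left) and translation index (right) of the 42 genes on the log2 scale, with SE bars, filled points for adjusted p under 0.05 and a dashed line at the median of all tested genes, -0.58 and -0.37. PGLS and PC lie left of the dashed line on the left and RPIA on the right, and those calls are lost when libraries are centred on the median of tested genes.

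A split by compartment was added after the data had been seen. In TA against RA, 11 of the 17 mitochondrial and 6 of the 25 cytosolic genes were called higher, beside 6.66% of all tested genes. The medians were 0.73 and 0.53, and over pairs of single libraries they ranged from 0.41 to 0.92 and from 0.25 to 1.06. Both groups were read in the same libraries, so these ranges can hold shifts that the groups share and do not measure the spread of the gap. The difference itself was not tested. Residual spread was 0.21 in the mitochondrial and 0.26 in the cytosolic genes at the median, and its part in the counts was not tested.

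The ratio of isoenzymes within a library does not change with the scaling of libraries. For 9 pairs, RA did not overlap TR in 6 and TA did not overlap RA in 3. Over all pairs of 10823 genes at 1 RPKM or more in each parameter, 73.9% did not overlap between RA and TR and 54.1% between TA and RA, so the isoenzymes do not stand out by these counts. HK1/HK2 was -1.07 ± 0.28 in TR (log2, SD, n = 2) and 0.20 ± 0.29 in RA (SD, n = 3), so HK2 led in both TR libraries and HK1 in 2 of the 3 RA libraries. LDHB/LDHA went from -0.44 ± 0.19 in TR to 0.74 ± 0.46 in RA, with LDHA ahead in TR and LDHB ahead in RA. ENO2/ENO1 fell from -1.78 ± 0.06 to -3.57 ± 0.29. MDH2/MDH1 was 0.71 ± 0.06 in TR and 0.11 ± 0.24 in RA.

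PFKL/PFKP and IDH2/IDH1 were also apart, at -0.82 ± 0.02 against -1.55 ± 0.64 and 0.52 ± 0.23 against -0.35 ± 0.87. Between RA and TA, PFKM/PFKP went from -1.64 ± 0.14 to -2.13 ± 0.19, ALDOC/ALDOA from -1.51 ± 0.33 to -0.92 ± 0.29 and SUCLG2/SUCLA2 from 1.34 ± 0.09 to 1.03 ± 0.13. A two-sided exact permutation test on the absolute difference of means cannot go below p = 0.1 for 2 against 3 libraries, and 6 of 18 comparisons reached it, with an adjusted exact p of 0.3. The form that doubles the smaller tail was computed first and cannot go below 0.2, with an adjusted exact p of 0.4 at the lowest. The pairs are therefore given as a description.

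**Figure D3:**
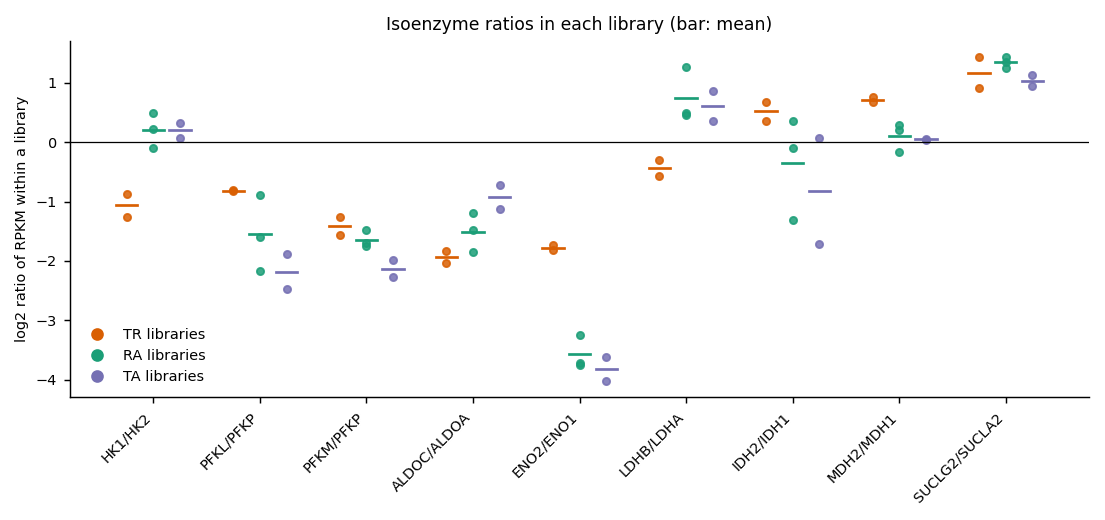
Log2 ratio of the RPKM of 2 isoenzymes within each library for 9 pairs, with points for libraries and bars for means. TR points lie apart from RA points in 6 pairs, and the largest step is that of ENO2/ENO1, from -1.78 to -3.57.

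Replicates of the same assay differed most in glycolysis. RA replicate 1 stood above RA replicate 2 in 17 of 17 glycolysis genes, by a median of 0.82 on the log2 scale, and in 7190 of all 14305 tested genes, by a median of 0.003. TA replicate 2 stood above TA replicate 1 in 15 of the 17, and in 7056 of all 14305 tested genes. TR replicate 1 stood above TR replicate 2 in 15 of the 17, and in 6471 of all 14305. In the TCA cycle the medians were 0.24 for RA, 0.06 for TA and 0.20 for TR. Residual SD was highest in PFKL, PGAM1, IDH2 and ALDOA, at 0.67, 0.61, 0.56 and 0.52, and lowest in SUCLG2 and DLST, at 0.03 and 0.04. What set these replicates apart was not tested.

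**Figure D4:**
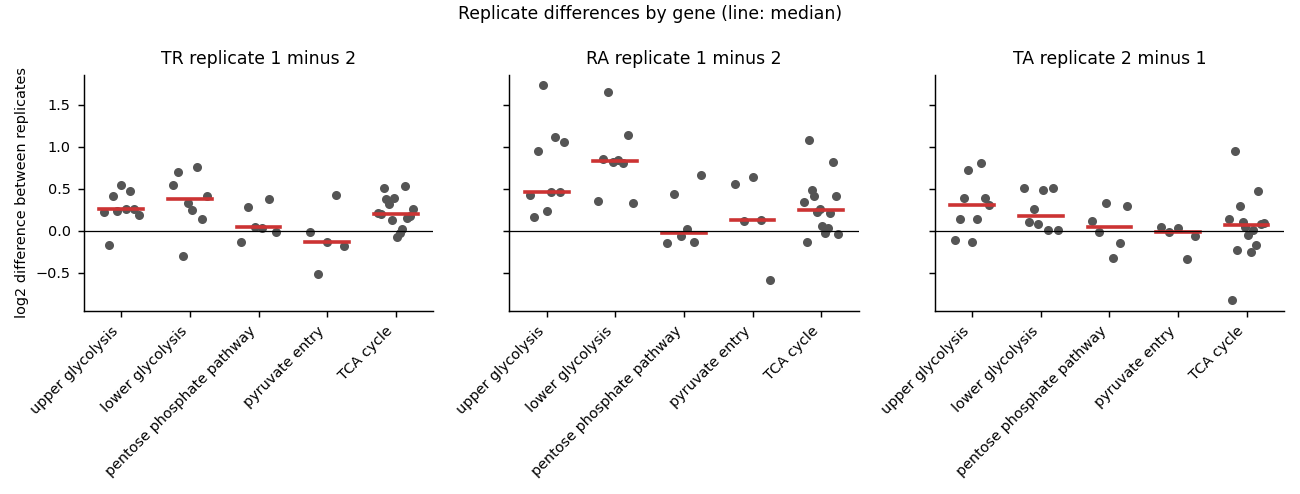
Log2 difference between replicates for each gene by pathway, for TR replicate 1 minus 2, RA replicate 1 minus 2 and TA replicate 2 minus 1, with a line at the median. All 17 glycolysis points lie above 0 in RA, where the medians are 0.46 and 0.83 for upper and lower glycolysis.

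Of 56 other genes of these pathways in the table, 49 were tested. In RA against TR 16 were called higher and 18 lower, where 19.2% and 48% of all tested genes were. The counts were 7 and 7 in TA against RA, beside 6.66% and 29.2% of all tested genes. They were 14 and 21 in TA against TR, beside 17% and 57.5%. Highest among the genes called in RA against TR were PDHA2, at 3.22, and GOT1, the cytosolic aspartate aminotransferase, at 2.12. PDHA2 rested on 0 and 1 reads in TR, and it is a close copy of PDHA1, so its ratio is uncertain. Lowest were PGAM2, the muscle mutase, at -6.54, and PKLR, the liver and red cell pyruvate kinase. PGAM2 had 340 and 514 reads in TR and 18, 33 and 13 in RA. Its overlap with other genes was not examined and the strand setting is not given, so its ratio is uncertain. PKLR had 39 and 141 reads in TR and 0, 0 and 1 in RA, and since it passed the filter on low values only through TR, it had to differ and its call supports nothing. Highest among the genes called in TA against RA were GOT1, at 1.24, and SLC2A1, the glucose transporter GLUT1, at 0.95, and lowest were GAPDHS, the sperm type, at -2.39, and ENO3, the muscle enolase, at -1.97.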

How the data were processed

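The authors mapped reads with TopHat at default settings to hg19, used HTSeq-count on exonic reads only, and deposited the result as RPKM values for 7 libraries; versions, annotation and strand setting are not given in the sources used here. No other scaling was applied. Library sizes were recovered from the steps of the values, which gave whole reads for 100% of positive values within 0.001 of a read. This step and the fit were tested on simulated data.

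Genes with a mean of at least 1 RPKM in TR, RA or TA (14305) were fitted with limma 3.58.1 in R 4.3.3, on log2(RPKM + 0.1), with all 7 libraries and an eBayes trend, so fold changes of low genes are understated. Calls used a Benjamini-Hochberg adjusted p under 0.05. Isoenzyme ratios were tested with an exact permutation test in scipy 1.17.1, two-sided on the absolute difference of means. A doubled smaller tail was computed first, and after its output was seen it was replaced by this form, which has the smallest p named in the design. Positions, pseudogenes and overlaps came from GENCODE release 44 lifted to GRCh37, which matched 42 of 42 genes.

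The genes, lists and pairs were chosen with earlier results of these data known. All 42 are named; values in every library are given for the extremes of each pathway in both indices, the 2 highest by RA and the isoenzymes, and of other pathway genes the 2 highest and 2 lowest called. Alternatives were pseudocounts of 0.01 and 1, other filters, centring, a replicate block, no trend and each library left out.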

Additional observations from a re-analysis of the deposited data

How the results depend on the processing

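Counts of calls and the ratios of single genes were recomputed under 15 alternatives, medians under all of these but the fit with no trend, which leaves them as they are, and isoenzyme ratios with other pseudocounts. Centring each library on the median of the tested genes gave medians of 1.89 (RA against TR), 1.09 (TA against RA) and 3.226 (TA against TR). The counts were 37, 34 and 41 higher with 0 lower. Of all tested genes 35.4%, 19% and 38% were then higher, and 33.7%, 9.81% and 35.3% lower. Centring on the genes that reach 1 RPKM in TR, RA and TA alike gave 1.498, 0.943 and 2.691. It gave 34 higher and 2 lower in RA against TR, where PGLS and PC kept their lower calls. In TA against RA it gave 31 higher and 0 lower, and in TA against TR 39 higher and 0 lower. All tested genes then had 25.5% higher and 41.1% lower in RA against TR. Their shares were 14.7% and 14.1% in TA against RA, and 27.6% and 44.3% in TA against TR. Under the first centring PGAM1 (0.35) and IDH3B (0.38) reversed in RA against TR, PC in TA against RA (0.46) and in TA against TR (0.13), and PGLS in TA against TR (0.61). Under the second PC reversed in TA against RA (0.31) and PGLS in TA against TR (0.0732). These shifts follow from the construction, since the tested genes had medians below 0.

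Leaving out 1 library at a time, which leaves TR or TA with a lone sample assumed to vary like the other groups, gave 8 to 23 called higher and 0 to 1 lower in TA against RA, 1 to 2 lower in TA against TR and a median of 1.94 to 2.05 in TA against TR. Single ratios that changed sign had ranges of -0.25 to 0.28 for TPI1 and -0.783 to 0.0423 for PGAM1 in RA against TR, and of -0.16 to 0.71 for PFKL, -0.205 to 0.0908 for PC and -0.22 to 0.72 for IDH2 in TA against RA. None of these was called in the reported fit, and the cause was not tested. Of all tested genes 7.2%, 5.81% and 2.95% were called higher in TA against RA without RA replicate 1, 2 and 3.

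The labels give the assays the same replicate numbers, but only 2 pairs exist in TR and TA, and although the study describes cells divided among the assays, neither it nor the labels say that equal numbers mark parts of 1 culture. Across 10825 genes the difference of replicates 1 and 2 correlated at 0.15 between TR and RA, -0.56 between RA and TA and 0.02 between TR and TA, so the numbers were not taken as a pairing. With the replicate block 5 genes were called higher and 0 lower in TA against RA, beside 0.762% and 9.7% of all tested genes. The counts were 29 and 2 in RA against TR, beside 14.6% and 41.9% of all tested genes. They were 33 and 2 in TA against TR, beside 15.2% and 54.2%. RPIA was the gene whose lower call in TA against RA was lost with it.

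The isoenzyme differences kept their direction with pseudocounts of 0.1 and 1. Their exact p was 0.1 at the lowest, or 0.2 with the smaller tail doubled. The doubled form was run first, and the form on the absolute difference, whose smallest p is the one the design named, was taken up after that output had been seen. No comparison passed 0.05 under either.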

Other observations

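Across the 42 genes, RA replicate 1 minus 2 and TA replicate 2 minus 1 had a Pearson correlation of 0.65 on the log2 scale, and across the 10825 genes that reach 1 RPKM in all parameters it was 0.56. These are correlations across genes of the same libraries, given as a description. The GC content of the canonical transcript went with the TA difference at 0.46 across the 42 and at 0.21 across the 10271 of those genes with a GC value, and with the RA difference at 0.15 and 0.14.

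The 42 genes took between 0.497% and 0.624% of the reads of a TR library, between 1.31% and 1.97% of an RA library and between 2.20% and 2.54% of a TA library. Their spread across genes also differed between parameters, with an SD on the log2 scale of 1.44 in TR, 1.72 in RA and 1.78 in TA. The highest stood 112.3 times above the lowest in TR, 183 times in RA and 242 times in TA.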
